A study of Homo sapiens with 12 samples.

Results

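The genes described here are 8 genes of the extrinsic, or death receptor, pathway of apoptosis: the death receptor genes *FAS*, *TNFRSF10A* and *TNFRSF10B*, the ligand gene *TNFSF10*, the caspase genes *CASP8* and *CASP10*, the caspase regulator *CFLAR* and the interferon-inducible gene *XAF1*. They were taken by name from the 45416 genes of the deposited expression table, and all 8 were found. The cells were U251, an established cell line from a human glioblastoma. They were transfected with siNC, a control siRNA, or with one of 2 *PD-L1* siRNAs, siPDL1-1 and siPDL1-2, and then kept without stimulation or given IFNγ at 100 U/ml for 24 h. There were 2 RNA-seq libraries for each of the 6 conditions, 12 in all. Every group, the controls included, had been through siRNA transfection and came from this single cell line.

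Death receptors are membrane proteins that recruit caspases when a ligand binds them. TRAIL, the protein of *TNFSF10*, binds DR4 (*TNFRSF10A*) and DR5 (*TNFRSF10B*), and FAS binds FAS ligand. At the bound receptor, the initiator caspases CASP8 and CASP10 are activated, whereas FLIP, the protein of *CFLAR*, competes with them and limits the signal. XAF1 is known as an interferon-inducible antagonist of XIAP, an inhibitor of the caspases that act downstream. Several of these genes are known targets of interferons, and the pathway is one by which T cells and NK cells kill tumor cells.

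Between 17101069 and 55657393 reads were counted on genes in a library, and a single read was worth 0.0187 to 0.0586 normalized CPM, the read count scaled to the size of the library. Of the lineage markers, *VIM*, *CD44*, *SOX2* and *NES* averaged 3502, 523, 161 and 156 CPM over the libraries, whereas the astrocyte markers *GFAP*, *S100B* and *ALDH1L1* averaged 4.38, 3.70 and 2.05 CPM and *OLIG2* 0.127 CPM. The 5 leukocyte markers summed to 0.899 CPM or less in every library, the 2 endothelial markers to 1.71 CPM or less, and the epithelial marker to 0.120 CPM or less. A gene was called differentially expressed at an FDR below 0.01 over all genes tested and a fold change above 1.5, with limma's moderated test on log2(CPM + 1). All log2 fold changes below are on that scale, which understates the change of genes near or below 1 CPM. Groups are given as mean ± SD over n = 2 libraries. The authors describe independent experiments, but nothing ties a library to a culture, so the p-values measure the spread between these libraries.

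The 8 genes covered a wide range of levels. Per kilobase of the canonical transcript, *TNFRSF10B* was the most abundant of the 8 in unstimulated siNC cells, at 35.5 ± 0.275 CPM per kb. *CASP8* (6.01 ± 0.276), *TNFSF10* (5.85 ± 0.332), *FAS* (2.09 ± 0.199) and *CFLAR* (2.05 ± 0.0311 CPM per kb) came next, and neither *CASP8* and *TNFSF10* nor *FAS* and *CFLAR* differed from each other by more than their SD. *CASP10* followed at 0.0326 ± 0.0272 and *TNFRSF10A* at 0.0232 ± 0.00708 CPM per kb, again within their SD. *XAF1* was last, with 1 read in one of these libraries and 0 in the other. After IFNγ in siNC cells, *TNFSF10* and *XAF1* came after *TNFRSF10B*, at 24.2 ± 0.864 and 10.6 ± 0.0935 CPM per kb, followed by *CASP8* (9.62 ± 0.551 CPM per kb) and *FAS* (7.69 ± 0.434 CPM per kb). In stimulated siPDL1-1 cells, *TNFSF10* (80.3 ± 3.88) and *XAF1* (49.3 ± 0.210) stood above *TNFRSF10B* (44.5 ± 2.00 CPM per kb). The value for *CFLAR* depends on its long canonical transcript of 14612 bases, beside 1876 bases for *TNFSF10*, and shorter isoforms would raise it.

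**Figure D1:**
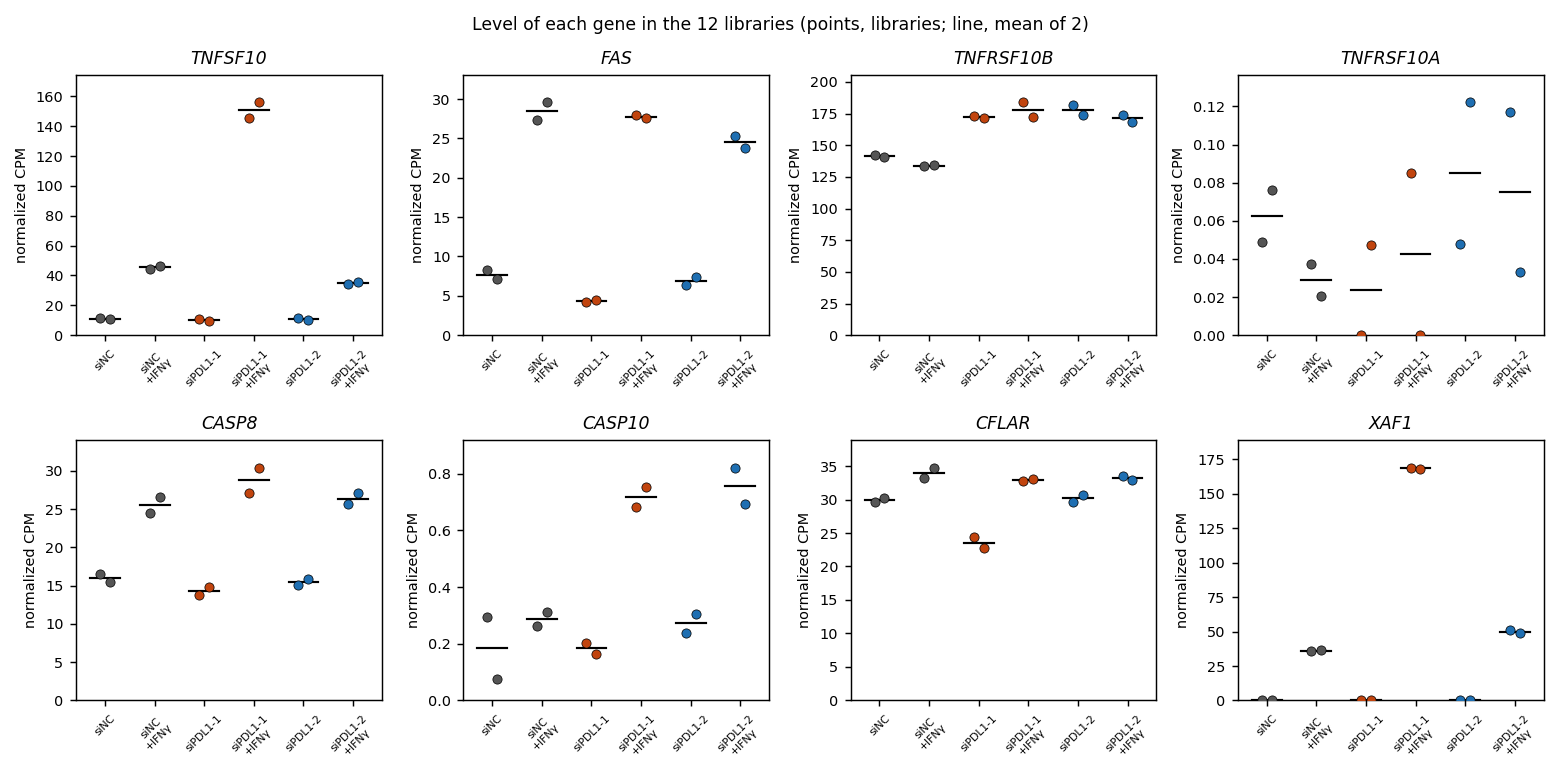
Normalized CPM (vertical axes, linear, each from 0) of the 8 genes in each of the 12 libraries, by siRNA and IFNγ stimulation (horizontal axes). Points are libraries and lines are means of 2. *TNFSF10* and *XAF1* are highest in the 2 IFNγ-stimulated siPDL1-1 libraries, and *FAS* and *CASP8* are higher with IFNγ under every siRNA. *TNFRSF10B* is higher in every siPDL1 library than in every siNC library, and its differences with IFNγ are smaller.

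The promoters of the 4 genes that rose with IFNγ in every siRNA background are shown first, since interferons act through short elements near the start of transcription. The 300 bases run 5′ to 3′ on the strand of the gene, from 250 bases before the RefSeq start to 50 after it (GRCh38.p14). Of the 8 genes, 5 had an entry with sequence in the RefSeq promoter table used. Capitals mark matches to GAAANNGAAA, the core of the interferon-stimulated response element (ISRE), on either strand.
*TNFSF10*, chr3:172523381-172523680, minus strand: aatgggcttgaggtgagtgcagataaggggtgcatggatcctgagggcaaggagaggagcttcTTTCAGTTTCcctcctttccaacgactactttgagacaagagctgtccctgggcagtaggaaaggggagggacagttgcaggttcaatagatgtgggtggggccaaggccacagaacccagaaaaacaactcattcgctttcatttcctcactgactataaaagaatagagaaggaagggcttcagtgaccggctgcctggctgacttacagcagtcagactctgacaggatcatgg
*CASP8*, chr2:201233213-201233512, plus strand: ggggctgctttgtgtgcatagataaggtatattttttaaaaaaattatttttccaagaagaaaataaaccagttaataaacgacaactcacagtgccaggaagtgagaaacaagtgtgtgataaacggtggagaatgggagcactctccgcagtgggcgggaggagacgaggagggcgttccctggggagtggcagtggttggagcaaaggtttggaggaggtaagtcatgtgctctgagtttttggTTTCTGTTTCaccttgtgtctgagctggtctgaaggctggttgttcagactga
*FAS*, chr10:88990548-88990847, plus strand: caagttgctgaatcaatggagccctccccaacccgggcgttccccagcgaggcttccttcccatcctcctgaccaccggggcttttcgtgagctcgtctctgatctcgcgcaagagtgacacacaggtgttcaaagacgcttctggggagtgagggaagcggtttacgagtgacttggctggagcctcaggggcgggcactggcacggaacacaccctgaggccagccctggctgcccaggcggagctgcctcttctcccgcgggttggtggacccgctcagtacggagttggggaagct
*XAF1*, chr17:6755796-6756095, plus strand: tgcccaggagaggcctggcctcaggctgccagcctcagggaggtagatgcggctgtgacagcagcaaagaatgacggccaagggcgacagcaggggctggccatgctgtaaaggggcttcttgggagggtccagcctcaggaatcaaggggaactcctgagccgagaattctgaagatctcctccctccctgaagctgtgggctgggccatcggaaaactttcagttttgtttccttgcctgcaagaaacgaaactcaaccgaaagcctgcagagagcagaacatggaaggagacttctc
The *TNFSF10* window held 1 ISRE match, in the reverse orientation, whose first printed base lies 187 bases before the start. The *CASP8* window held 1 ISRE match in the reverse orientation, starting 3 bases before the start. No match was found in the *FAS*, *XAF1* or *CFLAR* windows, which says only that these letters are not in these 300 bases. The ISRE letters were present in 3.57% of 35116 RefSeq promoters of this length. A match is a description of the sequence, and no binding was measured in these cells.

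IFNγ raised *TNFSF10*, *FAS*, *CASP8* and *XAF1* in cells with each of the 3 siRNAs. That is 4 of the 7 genes tested in each siRNA background, with 0 lower, where 8.12% of all genes tested were called in either direction with siNC, 6.87% with siPDL1-1 and 5.27% with siPDL1-2. *XAF1* passed the filter on low reads only through the stimulated libraries, where it is high, so its call was fixed by that filter and adds nothing to the count. Of the 6 genes that passed the same filter on the unstimulated libraries alone, 3 were called in each background, all higher. The median log2 fold change of these 6 genes was 0.41 with siNC, 0.75 with siPDL1-1 and 0.60 with siPDL1-2, and that of all genes was 0.00, -0.02 and -0.01. Past the FDR threshold without regard to fold change were 4 of the 7 genes with siNC, where 27.3% of all genes were. The counts were 6 with siPDL1-1 (22.9%) and 5 with siPDL1-2 (17.1%). *XAF1* is among them in each background and adds nothing to these counts either. The eighth gene, *TNFRSF10A*, had too few reads to be tested.

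*TNFSF10* (ENSG00000121858, GRCh38 chromosome 3, 172505508 to 172523475, minus strand) encodes TRAIL. In unstimulated cells it was 11.4 and 10.5 CPM with siNC, 10.6 and 9.72 CPM with siPDL1-1, and 11.4 and 9.92 CPM with siPDL1-2. After IFNγ it was 44.3 and 46.5 CPM with siNC, 146 and 156 CPM with siPDL1-1, and 34.6 and 35.5 CPM with siPDL1-2. The 3 unstimulated groups overlapped, whereas the 3 stimulated groups were separate from them and from each other. By mean CPM the rise was 4.14-fold with siNC, 14.8-fold with siPDL1-1 and 3.29-fold with siPDL1-2. The log2 fold changes were 1.96 (SE 0.0746, FDR = 1.51e-11), 3.77 (SE 0.0746, FDR = 2.27e-15) and 1.63 (SE 0.0746, FDR = 1.67e-10 from limma).

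*XAF1* (ENSG00000132530, chromosome 17, 6755447 to 6775647, plus strand) was close to absent without stimulation. It was 0.0490 and 0 CPM with siNC, 0.174 and 0.141 CPM with siPDL1-1, and 0.120 and 0.122 CPM with siPDL1-2, which is 1, 12 and 9 reads over the 2 libraries of each group. After IFNγ it was 36.1 and 36.5 CPM with siNC, 169 and 168 CPM with siPDL1-1, and 50.8 and 49.2 CPM with siPDL1-2, from 3684, 9525 and 2355 reads. All stimulated libraries lay far above all unstimulated ones, and the 3 stimulated groups did not overlap. From the reads, stimulated over unstimulated levels were 2174 (95% counting interval 390 to 85882) with siNC, 1081 (619 to 2093) with siPDL1-1 and 412 (217 to 902) with siPDL1-2, so the siNC ratio rests on 1 read. The log2 fold changes of 5.19, 7.19 and 5.51 (SE 0.0829 each) had FDRs of 2.62e-16, 2.93e-18 and 1.30e-16 from limma, and are set in part by the pseudocount. These intervals cover counting error only, and reads are not independent molecules.

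*FAS* (ENSG00000026103, chromosome 10, 88990531 to 89017059, plus strand) encodes the receptor of FAS ligand. Unstimulated cells had 8.23 and 7.19 CPM with siNC, 4.21 and 4.52 CPM with siPDL1-1, and 6.33 and 7.36 CPM with siPDL1-2. After IFNγ the values were 27.3 and 29.6 CPM with siNC, 28.0 and 27.6 CPM with siPDL1-1, and 25.3 and 23.7 CPM with siPDL1-2. The 2 unstimulated siPDL1-1 libraries were the lowest of the 12, and the stimulated siNC and siPDL1-1 libraries overlapped. The IFNγ effect was 1.76 on the log2 scale with siNC (SE 0.0892, FDR = 5.18e-10), 2.42 with siPDL1-1 (FDR = 6.80e-12) and 1.71 with siPDL1-2 (FDR = 9.37e-10 from limma). By mean CPM these were rises of 3.69-fold, 6.37-fold and 3.59-fold. *FAS* overlaps *ACTA2*, a smooth muscle actin gene on the opposite strand, over 809 bases, and the authors counted both strands together. *ACTA2* was 7.38 ± 1.75 CPM in unstimulated and 23.1 ± 0.330 CPM in stimulated siNC cells, so both were higher after IFNγ, and reads from the overlap cannot be told apart. In unstimulated siPDL1-1 cells, where *FAS* was lower than with siNC, *ACTA2* was 7.39 ± 0.438 CPM, which is within the spread of siNC.

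*CASP8* (ENSG00000064012, chromosome 2, 201233443 to 201287711, plus strand) encodes the initiator caspase of the pathway. It was 16.5 and 15.5 CPM in unstimulated siNC cells, 13.8 and 14.8 CPM with siPDL1-1, and 15.1 and 15.9 CPM with siPDL1-2. IFNγ-stimulated cells had 24.5 and 26.6 CPM with siNC, 27.1 and 30.4 CPM with siPDL1-1, and 25.7 and 27.0 CPM with siPDL1-2. The 6 stimulated libraries all lay above the 6 unstimulated ones. The log2 fold changes were 0.65 (SE 0.0761, FDR = 8.32e-06), 0.96 (FDR = 1.20e-07) and 0.73 (FDR = 3.52e-06 from limma), or 1.60-fold, 2.01-fold and 1.70-fold by mean CPM.

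*CFLAR* and *CASP10* lie beside *CASP8* on chromosome 2, in the order *CFLAR*, *CASP10*, *CASP8*, with 6210 and 4036 bases between neighbours. *CFLAR* (ENSG00000003402, 201116154 to 201176687, plus strand) was 29.6 and 30.3 CPM in unstimulated siNC cells, 24.4 and 22.8 CPM with siPDL1-1, and 29.7 and 30.6 CPM with siPDL1-2. With IFNγ it was 33.1 and 34.7 CPM with siNC, 32.8 and 33.1 CPM with siPDL1-1, and 33.5 and 32.9 CPM with siPDL1-2. All stimulated values were above all unstimulated ones, but the range over the 12 libraries was narrow. The log2 fold changes of 0.18 (FDR = 0.0272), 0.47 (FDR = 1.70e-05) and 0.14 (FDR = 0.0963 from limma) were below the fold change threshold.

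*CASP10* (ENSG00000003400, 201182898 to 201229406, plus strand), the other initiator caspase gene, had 9 to 40 reads per group. It was 0.294 and 0.0759 CPM in unstimulated siNC cells, 0.203 and 0.165 CPM with siPDL1-1, and 0.240 and 0.305 CPM with siPDL1-2. The stimulated values were 0.262 and 0.311 CPM with siNC, 0.681 and 0.753 CPM with siPDL1-1, and 0.821 and 0.694 CPM with siPDL1-2. The siNC groups overlapped, whereas the 4 stimulated siPDL1 libraries were the highest of the 12. From the reads, stimulated over unstimulated levels were 1.90 (95% counting interval 0.876 to 4.57) with siNC, 3.89 (2.07 to 7.74) with siPDL1-1 and 2.76 (1.55 to 5.04) with siPDL1-2. On the log2(CPM + 1) scale the changes were 0.12, 0.54 and 0.47, with FDRs of 0.437, 0.00228 and 0.00776 from limma, and none passed the fold change threshold. The siPDL1-1 change was called with edgeR on the reads (1.96, FDR = 0.0053) and by limma with a pseudocount of 0.1 (1.53, FDR = 0.0067). It was not called with DESeq2 (1.97, FDR = 0.0306).

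The receptor genes of TRAIL were not called with IFNγ under any siRNA, although the gene of their ligand was. *TNFRSF10B* (ENSG00000120889, chromosome 8, 23020133 to 23069031, minus strand) encodes DR5. It was 143 and 141 CPM in unstimulated and 134 and 134 CPM in stimulated siNC cells, a log2 fold change of -0.08 (95% interval -0.17 to 0.01, FDR = 0.143 from limma). With siPDL1-1 it was 173 and 172 CPM before and 184 and 172 CPM after IFNγ, a change of 0.05 (-0.05 to 0.14). With siPDL1-2 it was 182 and 174 CPM before and 174 and 169 CPM after IFNγ, a change of -0.06 (-0.15 to 0.03). The intervals exclude a change of 1.5-fold in either direction. *TNFRSF10A* (ENSG00000104689, chromosome 8, 23190452 to 23225102, minus strand), which encodes DR4, had between 0 and 4 reads in a library and 2 to 6 in a group, at most 0.122 CPM, so no difference was detectable at this depth.

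**Figure D2:**
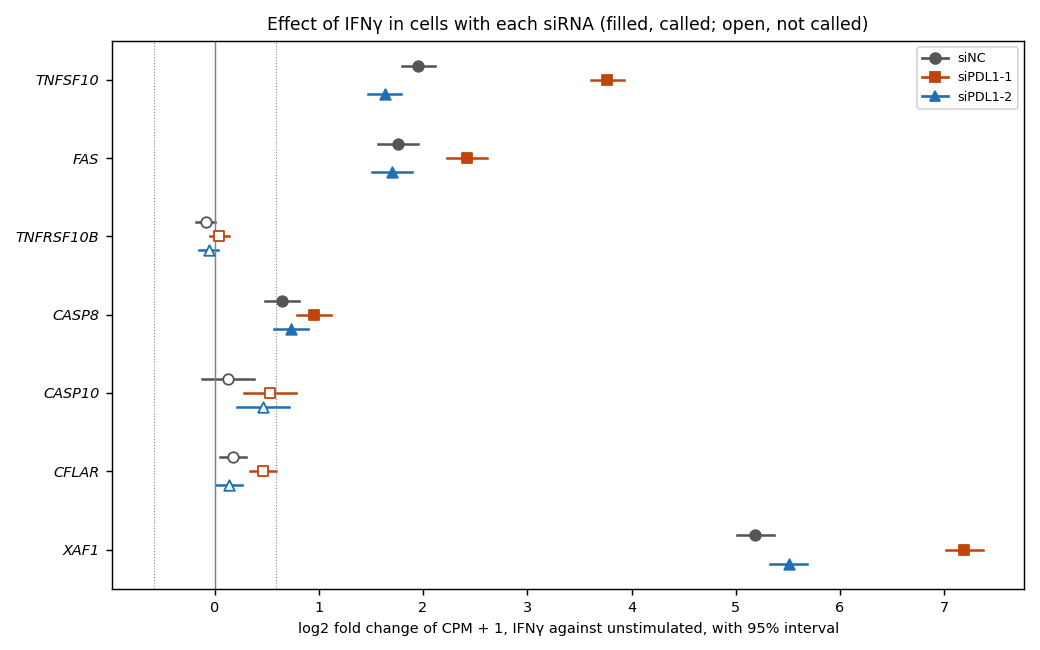
Log2 fold change of CPM + 1 (horizontal axis), stimulated against unstimulated, with its 95% interval, for the 7 genes tested in cells with siNC, siPDL1-1 and siPDL1-2. Filled symbols were called, open ones were not, and dotted lines mark 1.5-fold. *XAF1*, *TNFSF10*, *FAS* and *CASP8* are called under all 3 siRNAs, and the *TNFSF10* and *XAF1* values with siPDL1-1 stand at 3.77 and 7.19.

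Since *CASP8* rose more than *CFLAR*, the level of *CFLAR* relative to *CASP8*, each per kilobase, was lower after IFNγ. It was 0.279 to 0.358 in the 6 unstimulated libraries and 0.198 to 0.246 in the 6 stimulated ones, with no overlap. The lowest ratios of both sets were from siPDL1-1 libraries, 0.279 without and 0.198 with IFNγ. The ratio was computed after the separate results were known and was not tested. It compares RNA levels and not the proteins.

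**Figure D3:**
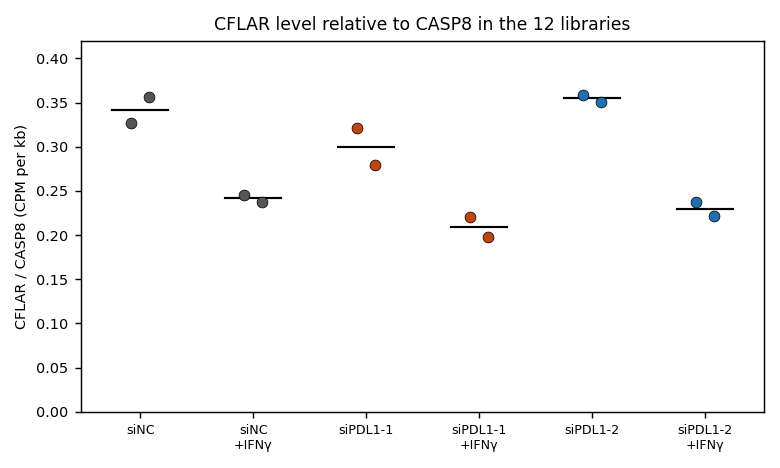
Ratio of *CFLAR* to *CASP8*, both in CPM per kb of canonical transcript (vertical axis, linear from 0), in the 12 libraries by siRNA and stimulation. Points are libraries and lines are means of 2. The unstimulated libraries lie at 0.279 to 0.358 and the stimulated ones at 0.198 to 0.246.

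The next comparisons asked what the siRNAs against *PD-L1* changed. The targeted gene, *CD274*, had 94 and 194 reads (4.6 and 4.91 CPM) in unstimulated siNC cells, 2.67 and 2.73 CPM with siPDL1-1, and 3.57 and 3.45 CPM with siPDL1-2. With IFNγ, *CD274* was 71.2 and 76.0 CPM with siNC, 60.9 and 66.7 CPM with siPDL1-1, and 37.5 and 35.0 CPM with siPDL1-2. The knockdown was thus called without stimulation with siPDL1-1 (log2 fold change -0.64) and after IFNγ with siPDL1-2 (-1.001), and not in the other 2 comparisons (-0.35 and -0.20). The siRNAs were therefore kept apart.

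In unstimulated cells, siPDL1-1 lowered *FAS*, 1 of the 7 genes tested, where 4% of all genes were called. The mean level was 0.566 times that in siNC cells, at 4.36 ± 0.221 against 7.71 ± 0.735 CPM, with a log2 fold change of -0.70 (SE 0.0892, FDR = 3.28e-05 from limma). *CFLAR* was 0.33 lower on the log2 scale (FDR = 5.21e-04) and *TNFRSF10B* 0.28 higher (FDR = 1.56e-04), both below the fold change threshold. These are 3 of the 7 genes past the FDR threshold alone, where 18.8% of all genes were. With siPDL1-2, 0 of the 7 genes were called, where 6.17% of all genes were, and *FAS* differed from siNC by -0.15 (95% interval -0.34 to 0.04). *TNFRSF10B* was 0.33 higher (FDR = 2.93e-05 from limma), the only one of the 7 past the FDR threshold, where 28.4% of all genes were. *XAF1* depended on the pseudocount here. With a pseudocount of 0.1 in place of 1 it was called higher with siPDL1-1 (1.07, FDR = 2.24e-04 from limma), where 4.89% of all genes were called, and with siPDL1-2 (0.86, FDR = 9.72e-04), where 7.79% were, from the 1, 12 and 9 reads of the 3 groups. Between the 2 siRNAs, *FAS* was 0.55 lower with siPDL1-1 (95% interval -0.74 to -0.36, FDR = 2.77e-04) and *CFLAR* 0.34 lower (FDR = 3.74e-04), neither past the fold change threshold, 2 of 7 past the FDR threshold where 24.1% of all genes were. In that comparison 0 of 7 genes were called, where 4.35% of all genes were. The *FAS* difference was called with edgeR (-0.65, FDR = 3.1e-04), where 5.86% of all genes were, with DESeq2 (-0.63, FDR = 1.15e-04), where 5.03% were, and with a pseudocount of 0.1 (-0.63), where 5.46% were. It was also called by limma without replicate 2 of unstimulated siPDL1-1 (-0.59) or replicate 1 of unstimulated siPDL1-2 (-0.64).

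After IFNγ, *TNFSF10* and *XAF1* were higher with siPDL1-1 than with siNC. These were 2 of the 7 genes tested, where 5.52% of all genes were called. *TNFSF10* was 151 ± 7.29 against 45.4 ± 1.62 CPM, 3.32-fold, with a log2 fold change of 1.71 (SE 0.0661, FDR = 2.95e-08 from limma). *XAF1* was 168 ± 0.716 against 36.3 ± 0.319 CPM, 4.64-fold, with a log2 fold change of 2.18 (SE 0.0605, FDR = 1.74e-09 from limma). Both siPDL1-1 libraries were above both siNC libraries for each gene. *TNFRSF10B* was 0.41 higher (FDR = 4.47e-04), below the fold change threshold, which makes 3 of 7 genes past the FDR threshold where 15.7% of all genes were. *FAS* (-0.03, 95% interval -0.20 to 0.14), *CFLAR* (-0.04, -0.19 to 0.11) and *CASP8* (0.16, -0.02 to 0.35) did not pass either threshold.

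With siPDL1-2, 0 of the 7 genes were called after IFNγ, where 2.91% of all genes were. Past the FDR threshold alone, *TNFSF10* was 0.36 lower (FDR = 0.00377), *XAF1* 0.45 higher (FDR = 7.58e-04) and *TNFRSF10B* 0.35 higher (FDR = 0.00206 from limma), 3 of 7 genes where 9.67% of all genes were. *TNFSF10* therefore lay on opposite sides of siNC with the 2 siRNAs. The direct comparison of siPDL1-1 with siPDL1-2 called *TNFSF10* (2.07, SE 0.0661, FDR = 6.48e-09) and *XAF1* (1.73, SE 0.0605, FDR = 1.44e-08 from limma), 2 of 7 genes, where 2.11% of all genes were called. *CASP10* was higher than with siNC by the same measure in both, with read ratios of 2.48 (95% counting interval 1.5 to 4.15) for siPDL1-1 and 2.59 (1.54 to 4.40) for siPDL1-2, and FDRs of 0.0326 and 0.0290 that missed the threshold. These comparisons share the siNC libraries.

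**Figure D4:**
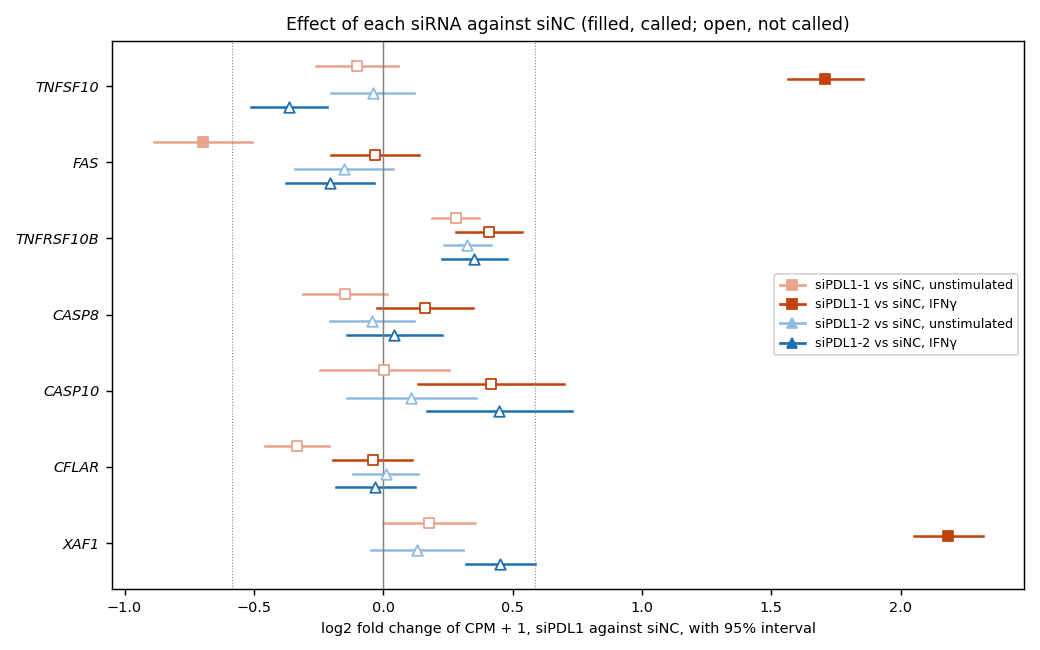
Log2 fold change of CPM + 1 (horizontal axis), each siRNA against siNC, with its 95% interval, for the 7 genes tested, without stimulation (light) and after IFNγ (dark). Filled symbols were called, open ones were not, and dotted lines mark 1.5-fold. The called values are *FAS* with siPDL1-1 without stimulation (-0.70) and *TNFSF10* (1.71) and *XAF1* (2.18) with siPDL1-1 after IFNγ.

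*TNFRSF10B* was higher than with siNC with both siRNAs and in both states. Over the 4 siNC libraries it was 134 to 143 CPM, and over the 8 siPDL1 libraries 169 to 184 CPM, with no overlap. The mean was 1.22-fold and 1.26-fold that of siNC without stimulation and 1.33-fold and 1.28-fold after IFNγ, for siPDL1-1 and siPDL1-2 in that order. Every one of these differences passed the FDR threshold in the main fit and none the fold change threshold. Past the FDR threshold, in the same order, were 18.8% and 28.4% of all genes without stimulation and 15.7% and 9.67% after IFNγ. With 1 library omitted, the siPDL1-2 difference after IFNγ was 0.33 to 0.37 and did not always pass it. The 2 siRNAs share the siNC libraries of each state. The share of all genes that separated without overlap was not counted. The mean CPM of *XAF1* was also higher with both siRNAs in both states, without overlap, but its unstimulated differences rest on 1 to 12 reads per group and were not past the FDR threshold with the pseudocount of 1. For *TNFRSF10B*, the 2 siRNAs differed by -0.05 without stimulation (95% interval -0.14 to 0.04) and by 0.06 after IFNγ (-0.07 to 0.18). *TNFRSF10B* is a known target of the transcription factors ATF4 and CHOP. The 6 genes of a list for these factors summed to 1037 to 1041 CPM in unstimulated siNC cells, 747 to 752 CPM with siPDL1-1 and 987 to 995 CPM with siPDL1-2. After IFNγ they summed to 786 to 811 CPM with siNC, 675 to 709 CPM with siPDL1-1 and 819 to 866 CPM with siPDL1-2. The sum was thus lower than with siNC in 3 of these comparisons and higher with siPDL1-2 after IFNγ, each without overlap. *ATF4* alone averaged 498 CPM in unstimulated siNC cells, so the sum is weighted towards the transcript of *ATF4* itself. Single genes were split in unstimulated siPDL1-2 cells. *CHAC1*, *DDIT3* and *TRIB3* stood at 0.48, 0.14 and 0.10 against siNC, and *ASNS*, *ATF3* and *ATF4* at -0.27, -0.28 and -0.14. The part of the list in the level of *TNFRSF10B* was not tested. Against siNC, 0 of its 6 genes were called higher and 1 lower with siPDL1-1 without stimulation (*DDIT3*, which encodes CHOP, -0.68), 0 with siPDL1-2, 0 with siPDL1-1 after IFNγ and 2 higher with siPDL1-2 after IFNγ, among them *TRIB3* (0.72). Without either of the stimulated siPDL1-2 libraries, that last count was 0 and *TRIB3* stood at 0.77 or 0.68 with FDRs of 0.0106 and 0.0173 from limma.

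Whether an siRNA effect depended on IFNγ was tested as the difference between the 2 effects. With siPDL1-1, 3 of the 7 genes were called, all higher, where 0.968% of all genes were called. Among the 3 is *XAF1*, which passed the filter on low reads only through the stimulated libraries. *TNFSF10* had a difference of 1.81 on the log2 scale (SE 0.105, FDR = 3.05e-08 from limma), with an siPDL1-1 effect of -0.10 without stimulation (95% interval -0.26 to 0.06). *FAS* had a difference of 0.67 (SE 0.126, FDR = 0.00683), between effects of -0.70 without and -0.03 with stimulation. That call was lost in 11 of 21 alternatives, and the limma, edgeR and DESeq2 FDRs over all 21 ranged from 8.98e-04 to 0.0494. The omission of 1 library ended it in 8 cases: replicate 1 of unstimulated siNC, either stimulated siNC library, either unstimulated siPDL1-1 library, replicate 1 of stimulated siPDL1-1, or either stimulated siPDL1-2 library. The log2 values in these fits were 0.58 to 0.72. *XAF1* had a difference of 2.01 (SE 0.117, FDR = 3.05e-08), but its sign depended on how the 1 to 12 reads in unstimulated cells were treated. It was -0.73 with edgeR (FDR = 0.802) and -0.93 with DESeq2 (FDR = 0.898) on the reads, and 1.14 (FDR = 0.0165) with a pseudocount of 0.1, so no dependence on the ratio scale is given for *XAF1*. With siPDL1-2, 0 of the 7 genes were called, where 7.62% of all genes were, and the *TNFSF10* difference was -0.32 (FDR = 0.0314).

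Other interferon-response genes were also highest in the stimulated siPDL1-1 libraries, as *TNFSF10* and *XAF1* were. A list of 12 genes of the type I interferon response summed to 77.4 to 78.5 CPM in unstimulated siNC cells, 136 CPM with siPDL1-1 and 68.8 to 70.2 CPM with siPDL1-2. After IFNγ it summed to 479 to 512 CPM with siNC, 4722 to 4809 CPM with siPDL1-1 and 549 to 579 CPM with siPDL1-2. Of the 12 genes, 11 were called higher with siPDL1-1 after IFNγ, among them *IFIT2* (log2 fold change 3.36), and 9 already without stimulation, whereas 1 and 0 were with siPDL1-2. Without stimulation the sum was higher with siPDL1-1 than with siNC, *TNFSF10* differed by -0.10 and *XAF1* had 12 reads against 1. After IFNγ the sum was higher with siPDL1-2 than with siNC, *TNFSF10* differed by -0.36 and *XAF1* by 0.45. The genes of the list were split in that last comparison, from *IFI6* at 0.76 to *IFIT1* at -0.57, with a median of 0.23. *XAF1* and *TNFSF10* are known to respond to type I interferon too, and the part of that response in their siPDL1-1 levels was not tested. In RNA from whole cultures, a change in every cell and a change in a share of the cells cannot be told apart.

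Likeness of pattern was described by Pearson's r of log2(CPM + 1) over the 12 libraries with each of 14272 genes of at least 1 CPM on average. The libraries share 6 conditions, so r follows the IFNγ response and carries no test. The genes most like *FAS* were *CASP4* (0.994) and *CASP1* (0.993), which encode inflammatory caspases, and those most like *TNFSF10* were *PLSCR1* (0.998) and *IFIH1* (0.997). *XAF1* was most like *TAP2* and *SAMHD1* (both 0.999), and *CASP8* most like *IL3RA* and *AC008875.3* (both 0.988). *CASP10* was most like *MILR1* (0.967) and *TMEM106A* (0.955), and *CFLAR* most like *TCIM* (0.974) and *PIK3R3* (0.955). *TNFRSF10B* stood apart from these, with *TK2* (0.981) and the serine synthesis gene *PSAT1* (0.969) as its nearest. *PSAT1* was 62.4 CPM on average in unstimulated siNC cells, 170 CPM with siPDL1-1 and 218 CPM with siPDL1-2. Among the 8 genes, r was 0.98 between *FAS* and *CASP8*, and -0.27 to 0.42 between *TNFRSF10B* and the other 6 tested.

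The rest of the pathway was followed in 41 other genes, of which 33 had enough reads. Of all genes tested, IFNγ changed 8.12% past the thresholds with siNC, 6.87% with siPDL1-1 and 5.27% with siPDL1-2. Of the 33, it raised 6 in siNC cells and lowered 0, with a median log2 fold change of 0.07. It raised 5 and lowered 0 with siPDL1-1 (median 0.17), where 8 rather than 5 were called without replicate 1 of stimulated siPDL1-1. It raised 2 and lowered 1 with siPDL1-2 (median 0.13), where 1 rather than 3 were called without replicate 2 of stimulated siPDL1-2. Of the 5 other death ligand genes, 1 was tested and 0 were called in any of the 11 comparisons, and of the 7 other death and decoy receptor genes, 5 were tested and 0 were called.

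Downstream, *BAK1*, which permeabilizes mitochondria, rose with IFNγ from 35.1 to 64.6 CPM in siNC cells (log2 fold change 0.86), by 1.5 with siPDL1-1 and by 1.06 with siPDL1-2. *BAK1* was also higher with siPDL1-1 than with siNC after IFNγ (1.08, FDR = 1.62e-06 from limma), and its siPDL1-1 effect depended on IFNγ (0.64, or 0.55 and not called without replicate 1 of stimulated siPDL1-1). *MCL1*, which opposes BAK1, rose by 0.70 with siNC and 1.21 with siPDL1-1, and its change of 0.38 with siPDL1-2 was below the fold change threshold.

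The inhibitor of apoptosis genes *XIAP* and *BIRC3* rose with IFNγ in siNC and siPDL1-1 cells and were not called in siPDL1-2 cells. *XIAP*, whose protein XAF1 antagonizes, rose by 0.85 and 0.88 on the log2 scale, against 0.07 with siPDL1-2. *BIRC3* rose by 1.08 and 1.10, against 0.29, and *BIRC2* had values of 0.58, 0.55 and -0.19, none called. The *BIRC2* value was called with siNC without replicate 1 of unstimulated siNC (0.63) or replicate 2 of stimulated siNC (0.59), and with siPDL1-1 without replicate 1 of stimulated siPDL1-1 (0.70). Unstimulated *XIAP* was 0.56 higher with siPDL1-2 than with siNC (FDR = 3.94e-06) and *BIRC2* 0.48 higher (FDR = 2.41e-04 from limma), both below the fold change threshold. *BIRC3* differed by -0.09 there. After IFNγ the values for *XIAP*, *BIRC2* and *BIRC3* against siNC were -0.21, -0.29 and -0.88. The dependence of the siPDL1-2 effect on IFNγ was called for *XIAP* (-0.78), *BIRC3* (-0.79) and *BIRC2* (-0.77), in a comparison where 7.62% of all genes were called. The *BIRC3* call was lost without replicate 1 of unstimulated siNC (-0.67), replicate 2 of stimulated siNC (-0.79) or replicate 2 of siPDL1-2, unstimulated (-0.69) or stimulated (-0.73). Of the adaptors, *TRADD* rose with IFNγ in siPDL1-2 cells (0.70) and *TRAF2* was lower with siPDL1-2 than siNC without stimulation (-0.61). The *TRADD* call was lost without replicate 2 of stimulated siPDL1-2 (0.55), and the *TRAF2* call without replicate 1 of unstimulated siNC (-0.56) or siPDL1-2 (-0.56).

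**Figure D5:**
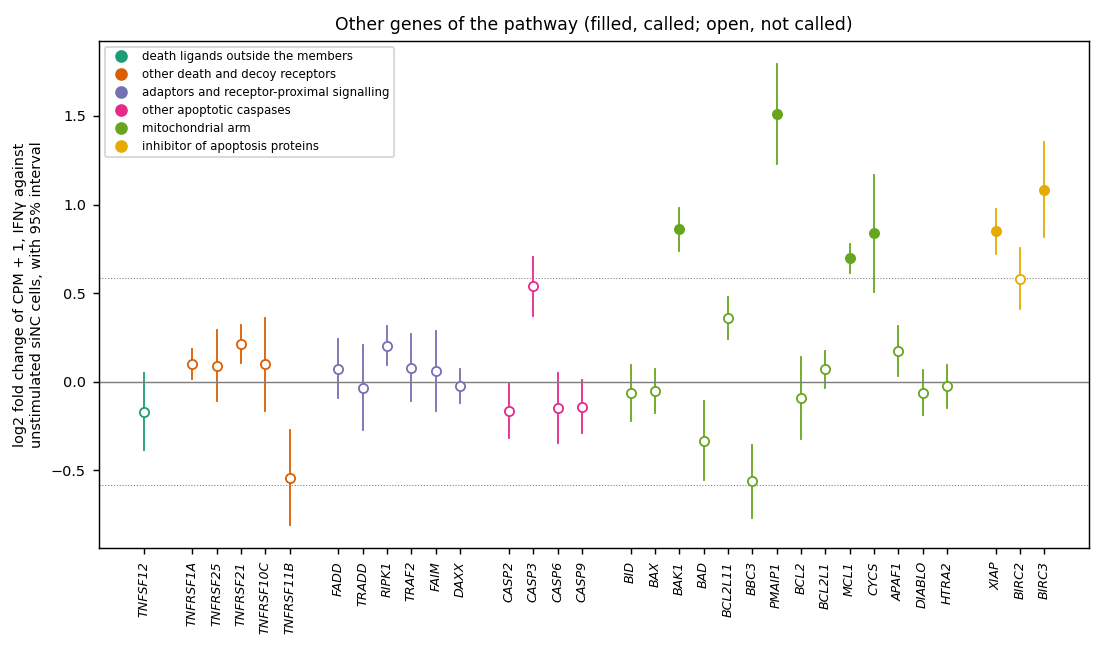
Log2 fold change of CPM + 1 with its 95% interval (vertical axis), stimulated against unstimulated siNC cells, for the 33 other pathway genes tested, coloured by group. Filled points were called, open ones were not, and dotted lines mark 1.5-fold. The 6 called genes are all higher and lie among the mitochondrial arm and the inhibitor of apoptosis genes.

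*APAF1*, which forms the apoptosome with cytochrome c, was the pathway gene called higher with both siRNAs in both states. It was 19.9 CPM on average in unstimulated siNC cells, 32.1 CPM with siPDL1-1 and 31.8 CPM with siPDL1-2. The log2 fold changes against siNC were 0.67 and 0.65. After IFNγ it was 22.6, 35.1 and 35.0 CPM, with log2 fold changes of 0.61 and 0.61. These last calls were lost without replicate 1 of stimulated siNC (0.57 and 0.57) and, for siPDL1-2, without its own replicate 1 (0.52), since they lay just above the fold change threshold. IFNγ did not change it past the thresholds with any siRNA (0.17, 0.12 and 0.13).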

How the data were processed

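The deposited table holds 1 column of normalized expression signal per library, in CPM, which the authors made in CLC Genomics Workbench by mapping to GRCh38 with the Ensembl annotation, counting both strands together and normalizing across libraries. In every library at least 99.98% of these signal values equalled a whole number of reads (tolerance 0.01), so the reads were recovered. The extraction kit and the sequencer named in the methods and in the labels differ.

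Libraries were grouped by the siRNA and stimulation in their labels. Genes were kept by edgeR's filterByExpr, applied to those reads with a minimum count of 10 and a minimum total of 15, which left 17982 genes in the 12 libraries and 17148 in the 6 stimulated ones. The log2(CPM + 1) values were tested with limma (trend, robust). All 12 libraries as 6 groups gave the IFNγ effects, the unstimulated comparisons and the dependence on IFNγ, and the 6 stimulated libraries as 3 groups gave the siRNA comparisons after IFNγ. FDRs are Benjamini-Hochberg over all genes tested.

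Genes named beside the 8 are *CD274*, up to 3 called genes with the smallest FDR from each of 8 lists (other death ligands, death and decoy receptors, adaptors, caspases, the mitochondrial arm, inhibitors of apoptosis, type I interferon response, ATF4 and CHOP), the 2 genes most like each gene, and overlapping genes. The genes and lists were chosen with earlier results of these data known. One listed gene and one sequence element are not reported here. Read ratios carry exact 95% binomial counting intervals. Lengths are those of canonical GENCODE 44 transcripts, promoters are RefSeq's, and coordinates are those of the table. Replicates were checked for duplication (mean chi-square per gene 1.85 to 7.76), and the tests were checked on simulated data.

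Alternatives were edgeR's quasi-likelihood and DESeq2's Wald test on the reads, DESeq2 size factors, a pseudocount of 0.1, no filter, replicate number as a block, other thresholds, other sets of libraries in the fit, and the omission of each library. Figures were drawn with matplotlib 3.10.9 and tables made with pandas 2.3.3, scipy 1.17.1 and numpy 2.4.6 under Python 3.11.15. The fits used DESeq2 1.42.0, edgeR 4.0.16 and limma 3.58.1 under R 4.3.3.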

Additional observations from a re-analysis of the deposited data

Results flagged for a closer look

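Of the 7 genes tested, 3 had an siPDL1-1 effect that differed between stimulated and unstimulated cells by limma's test of the difference. Of all genes tested, 0.968% were called there. Among the 3 is *XAF1*, which passed the filter on low reads only through the stimulated libraries, where it is high. *TNFSF10* differed by 1.81 on the log2 scale, with both stimulated siPDL1-1 libraries above both siNC libraries and the unstimulated ones overlapping, and this value was called in every alternative. *FAS* differed by 0.67 and lost its call in 11 of 21 alternatives. *XAF1* differed by 2.01 with the pseudocount of 1 and had the opposite sign in both count models, because unstimulated cells had 1 to 12 reads per group. No group had enough libraries for a single one to be tested as standing apart.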

How the results depend on the processing

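The 20 called values of the 8 genes had 396 alternatives, of which 382 left direction and call as they were, 12 lost the call and 2 reversed the sign. Not all of these could have changed a call. The looser thresholds cannot remove one, and omitting a library outside a comparison changes the spread but not the log2 value. The *XAF1* calls with IFNγ, fixed by the filter on low reads, are also among the 20. The 57 values not called had 1092, of which 1044 were the same, 21 gained a call and 27 changed sign around 0. Requiring only the FDR called 3 genes rather than 1 with siPDL1-1 (18.8% of all genes) and 1 rather than 0 with siPDL1-2 (28.4%) without stimulation. It called 2 rather than 0 between the siRNAs (24.1%) and 3 rather than 0 with siPDL1-2 after IFNγ (9.67%). A pseudocount of 0.1 gave 2, 1 and 1 in the 3 unstimulated comparisons (4.89%, 7.79% and 5.46% of all genes). Between the siRNAs, edgeR (5.86%) and DESeq2 (5.03%) gave 1. Omitting 1 library gave 0 to 1 there and 2 to 3 for the dependence of the siPDL1-1 effect. *XAF1* reversed for that dependence with edgeR (-0.73) and DESeq2 (-0.93), and for siPDL1-2 (-2.13, -2.31, and -0.39 with a pseudocount of 0.1), the cause being its 1 to 12 unstimulated reads. *CFLAR* reversed with siPDL1-2 unstimulated (-0.020 with edgeR, -0.028 with DESeq2, -0.025 with its size factors) and for the siPDL1-2 dependence (0.0012 with DESeq2, 0.0014 with its size factors).

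Omitting 1 library moved values near 0 across it. *CASP10* ranged from -0.0081 to 0.26 for IFNγ with siNC, from -0.13 to 0.14 for siPDL1-1 unstimulated, from -0.025 to 0.24 for siPDL1-2 unstimulated, and from -0.085 to 0.019 between the siRNAs after IFNγ. *TNFSF10* ranged from -0.13 to 0.050 for siPDL1-2 unstimulated and from -0.15 to 0.030 between the siRNAs. *CASP8* ranged from -0.088 to 0.00045 for siPDL1-2 unstimulated and from -0.013 to 0.099 after IFNγ. *CFLAR* ranged from -0.012 to 0.031 for siPDL1-2 unstimulated, from -0.063 to 0.0028 after IFNγ, and from -0.025 to 0.0030 between the siRNAs. *FAS* ranged from -0.088 to 0.024 for siPDL1-1 after IFNγ and from -0.15 to 0.041 for the siPDL1-2 dependence, and *TNFRSF10B* from -0.0053 to 0.058 for the latter.

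The correlation of replicate deviations ran from -0.36 to 0.41 over 15 pairs of conditions, with 3 over 0.1. Libraries with the same replicate number were therefore not taken as pairs. The lowest value, -0.36, was between unstimulated and stimulated siNC cells. The highest, 0.41, was between stimulated siNC and stimulated siPDL1-1 cells, which had -0.29 and -0.19 with stimulated siPDL1-2 cells. A pairing under other numbers was not tested. With the replicate block, *FAS* lost its siPDL1-1 dependence call (0.67, FDR = 0.0123 from limma) and no other call of the 8 genes changed. The 32 values of other named genes had 642 alternatives, of which 621 were the same, 14 lost and 7 gained a call. Requiring only the FDR called 13 rather than 6 of the other pathway genes with IFNγ in siNC cells, where 27.3% of all genes were. It called 12 rather than 5 with siPDL1-1 (22.9%) and 7 rather than 3 with siPDL1-2 (17.1%). Of the type I interferon-response genes, 4 rather than 1 were called with siPDL1-2 after IFNγ (9.67%) and 3 rather than 0 without (28.4%). Up to 6 rather than 1 ATF4 and CHOP genes were called against siNC, the 6 with siPDL1-1 without stimulation (18.8%). With 2 libraries a group, small changes and genes under 1 CPM, among them *CASP10* and *TNFRSF10A*, stay beyond the precision reached.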

Other observations

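Outside the rule for named genes, 2 further genes of the mitochondrial arm were called higher with IFNγ in siNC cells, chosen here after their values were seen. *PMAIP1*, which encodes the BH3-only protein NOXA, rose from 43.5 to 126 CPM on average (log2 fold change 1.51, SE 0.126, FDR = 1.02e-05 from limma) and *CYCS*, which encodes cytochrome c, from 98.2 to 176 CPM (0.84, SE 0.142, FDR = 0.00215). With siPDL1-1 *PMAIP1* rose by 1.57 (FDR = 8.79e-06 from limma), and *CYCS* had 0.54 and was not called. With siPDL1-2 the values were 0.52 and -0.48, neither called. *BBC3*, which encodes PUMA, was lower than with siNC in unstimulated cells with siPDL1-1 (-0.84) and siPDL1-2 (-0.64), at 11.9 and 13.9 against 22.3 CPM. After IFNγ its values against siNC were -0.04 (95% interval -0.28 to 0.20) and -0.03 (-0.26 to 0.21).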
